A study of Mus musculus with 35 samples.

Results

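Enterocytes of whole organoids are described here from 212 single wells, 156 of 276 kept wells in passage 1 and 56 of 209 in passage 2 of a wild-type organoid culture. A well counted as an enterocyte well when Apoa1, Apoa4, Fabp1, Fabp2 and Alpi together made up at least 1% of its gene counts, so these wells were selected on their own expression. A well was kept at 1500 or more gene counts, and 485 of 672 whole organoid wells were kept. In all, 241 of the 1209 kept wells of the series met the rule.

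Enterocytes are the absorptive cells of the intestinal villus. They split sugars and peptides with enzymes anchored in the brush border, carry the products inwards through dedicated transporters, and pack dietary fat with apolipoproteins into chylomicrons. Cells leave the crypt as dividing progenitors and change their expression as they move up the villus, and Apoa4 and Apoa1 are known as genes of the upper villus.

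The organoids came from crypts of 1 C57BL/6 wild-type mouse, grown in Matrigel with EGF, R-spondin and Noggin. These medium components are shared by all organoid wells. The 2 replicates were different passages of the same culture, dissociated with TrypLE and sorted as single cells into 96-well plates, 3 plates in passage 1 and 4 in passage 2. Polyadenylated RNA was counted by CEL-seq, which tags the 3' end of each transcript with a well barcode and a random molecular barcode of 4 bases. As an outside comparison, 25 of 335 kept wells met the same rule among YFP-positive cells of C57BL/6 mice labelled Lgr5-YFP. In those mice Cre made under Lgr5, a stem cell gene, removes a block in front of YFP at Rosa26, and cells were sorted from fresh intestine 5 days after labelling. Their crypts were released with EDTA and taken apart with trypsin. The labels do not say whether the 5 YFP plates came from separate animals, so p-values measure the spread between passages and plates only. Culture, mouse, reporter sort, dissociation and sequencing run all go with the source of the cells and cannot be told apart.

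Enterocyte wells made up 56.5% of the kept wells in passage 1 (exact 95% binomial interval 50.5 to 62.5%) and 26.8% in passage 2 (20.9 to 33.3%). By plate the share was 54.7, 53.8 and 61.4% in passage 1 and 34.6, 22.2, 26.6 and 29.3% in passage 2. The highest plate of passage 2 thus lay below the lowest plate of passage 1, and plates of 1 passage are not independent cultures, so no test was made. The count minimum kept 276 of 288 wells in passage 1 but 209 of 384 in passage 2. Wells below it were not classed, and their part in the difference in share was not tested. In enterocyte wells the summed marker share ran from 1.05 to 6.27% with a median of 2.03% in passage 1, and from 1.01 to 5.96% with a median of 2.00% in passage 2. The other wells had medians of 0.134 and 0.126%, and they reached 0.978 and 0.997%. The threshold cut through a continuous range. Between 0.5 and 1% there were 26 and 22 wells, and between 1 and 1.5% there were 41 and 18.

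**Figure D1:**
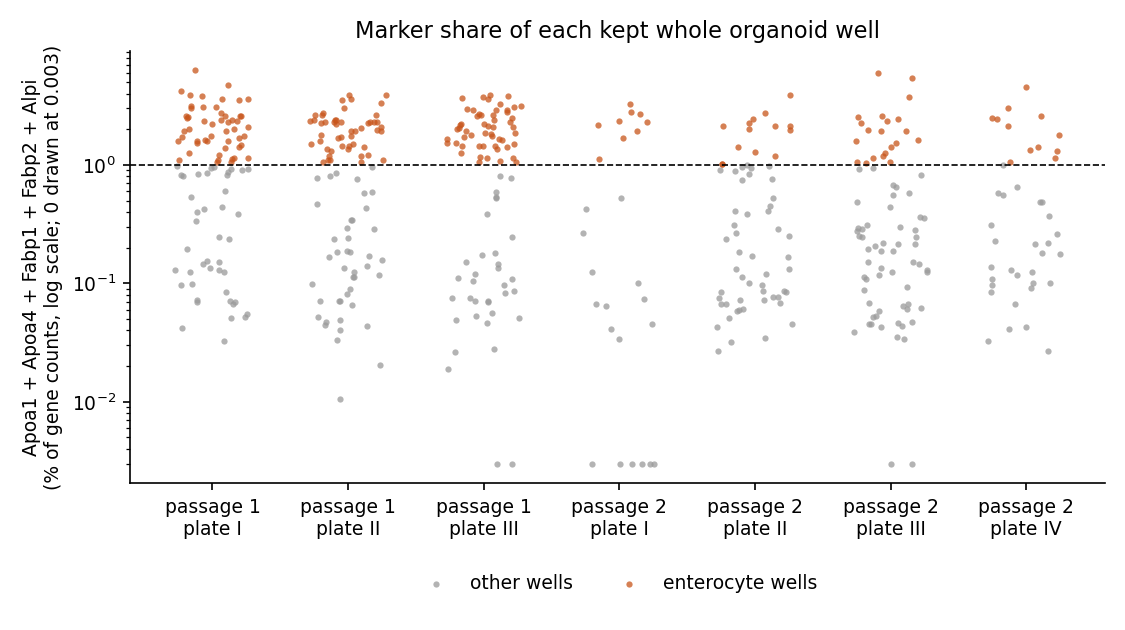
Summed share of Apoa1, Apoa4, Fabp1, Fabp2 and Alpi in each kept whole organoid well (log scale, percent of gene counts), by passage and plate, with the 1% threshold as a dashed line. Enterocyte wells are orange and other wells grey. All 3 plates of passage 1 hold more enterocyte wells than other wells, and all 4 plates of passage 2 hold fewer.

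Enterocyte wells held fewer counts than their neighbours, with medians of 6571 against 10231 in passage 1 and 3776 against 4893 in passage 2. Spike-in RNA, a synthetic standard, was 11.8 against 6.40% and 12.4 against 11.4% of counts. After thinning to 1500 counts they held a median of 899 against 956 and 885 against 932 genes. Plates I and II of passage 2 stood apart from plates III and IV. In their 23 enterocyte wells 937 of 6242 genes (15.0%) were at least 4-fold lower than in plates III and IV, against 103 that were at least 4-fold higher. In the other wells of the same plates 814 genes were lower, and 445 were lower in both kinds of well. The sucrase-isomaltase gene Sis stood at 51.2 and 93.9 CPM (gene counts scaled to a common total) in enterocyte wells of plates I and II, against 3508 and 3444 in plates III and IV and 3374 to 3827 in passage 1. Pabpc1, a poly(A) binding protein made by all cells, stood at 0 and 93.9 against 795 and 640. Counts over all genes are therefore also given without these plates, an exclusion chosen after seeing the data, and list counts where they changed. The reason was not tested.

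The label was checked against its markers (GRCm38 positions). The 5 genes of the rule are higher by construction, and Reg1 and Sis, which the rule did not use, were measured in the same wells. Reg1 (chromosome 6, 78422711 to 78428667), a secreted lectin, stood at 16404 CPM in enterocyte and 1982 in other wells of passage 1, and at 13426 against 564 in passage 2. Sis (chromosome 3, 72888557 to 72967863) stood at 3573 against 1062 and at 2837 against 353. Reg1 was thus higher in enterocyte wells of both passages, and so was Sis. Among single wells Reg1 ran from 0.0133 to 4.18% of counts with a median of 1.64% in passage 1, and from 0 to 3.49% with a median of 0.915% in passage 2. Wells that met the rule could therefore have next to no Reg1.

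Markers of other cell types were then summed in each well. No enterocyte well reached 1% of counts for Paneth, goblet, enteroendocrine, tuft, stromal or immune markers, while among the other wells 1 and 6 did so for Paneth, 3 and 11 for goblet and 15 and 0 for enteroendocrine markers (passages 1 and 2). The highest Paneth share in an enterocyte well was 0.0957% in passage 1 and 0.732% in passage 2, and the highest goblet share 0.297 and 0.338%. The highest enteroendocrine share was 0.797% in passage 1 and 0.0482% in passage 2. All 10 immune markers were at 0 in the enterocyte wells of both passages. Chgb, a granin of hormone-secreting cells, was counted in 75.0% of enterocyte and 80.0% of other wells of passage 1, and in 1.79 and 1.31% in passage 2. Its level in passage 1 was 472 against 2665 CPM. Defa24, a defensin of Paneth cells, was counted in 62.5% of enterocyte and 60.1% of other wells of passage 2. The source of these transcripts was not tested. Cells were sorted singly and no doublet caller was run.

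Which genes set these wells apart was described, not tested, because the rule used this contrast. A gene was counted as higher when its CPM plus 10 was at least 2-fold higher in enterocyte than in other wells of both passages, among 6242 genes with at least 100 counts. Of these, 368 (5.9%) were higher and 720 (11.5%) lower. The counts were 373 and 733 without plates I and II of passage 2, and 1056 of all these genes were counted in both settings. The median log2 ratio over all genes was −0.22 in passage 1 and −0.20 in passage 2.

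**Figure D2:**
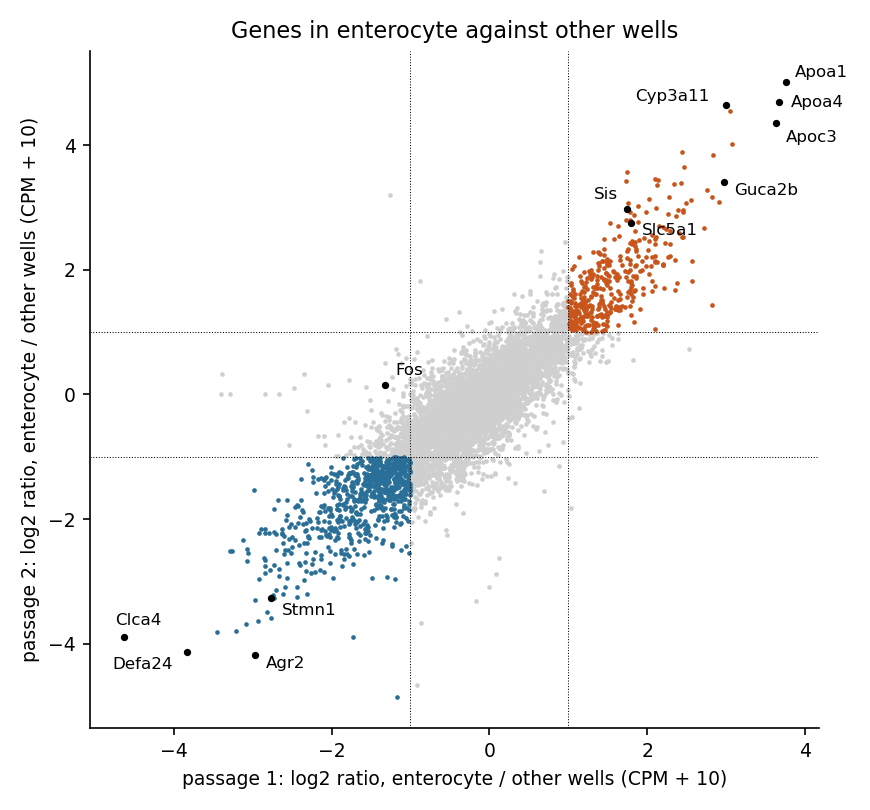
Log2 ratio of CPM + 10 in enterocyte against other wells, passage 1 on the x axis and passage 2 on the y axis, 1 point per gene. Orange points are the 368 genes at least 2-fold higher in both passages, blue points the 720 lower ones, dotted lines mark 2-fold, and named genes are black. The apolipoprotein genes Apoa1 and Apoc3 lie at the upper right, Clca4 and Defa24 at the lower left, and Fos is lower in passage 1 only.

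Of 21 considered genes of fat uptake and chylomicron assembly, 16 were higher and none lower, with median log2 ratios of 1.79 and 2.07. This list holds 4 genes of the rule, and without them 12 of 17 were higher (1.73 and 1.76), or 13 of 17 also without plates I and II of passage 2. Apoa1 (chromosome 9, 46228580 to 46230466), the main protein of high-density lipoprotein, stood at 4420 CPM in enterocyte and 317 in other wells of passage 1, and at 4985 against 144 in passage 2. Apoa4 (46240696 to 46243459 on the same chromosome), a protein of chylomicrons, stood at 5654 against 436 and at 7579 against 284. Both belong to the rule, and in single enterocyte wells Apoa1 was at 0 in the lowest well of each passage. Apoc3 (46232933 to 46235636), an inhibitor of lipoprotein lipase that lies between these 2 genes, is outside the rule. It stood at 2208 against 169 CPM and at 2229 against 99.1. Apoc2, the activator of the same lipase, stood at 1177 against 131 and at 1092 against 58.1. Apoc3 and Apoc2 were thus higher in enterocyte wells of both passages.

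The cytosolic carriers and the synthesis enzymes were higher too. For the liver-type fatty acid carrier Fabp1 the levels were 5940 against 1338 CPM and 4423 against 395, and Fabp2, the intestinal type, stood at 2509 against 449 and at 2195 against 272. Mttp, which loads lipid onto apolipoprotein B, stood at 1327 against 388 and at 1455 against 282. Dgat1 and Mogat2, which rebuild triglyceride, stood at 1523 against 432 and 465 against 93.5 in passage 1, and at 1291 against 360 and 395 against 86.3 in passage 2. The members below the 2-fold mark were Scarb1, Plin2, Plin3, Sar1b and Agpat2. Scarb1, a lipoprotein receptor, stood at 14.6 against 35.9 and at 75.8 against 61.5, so that its ratio pointed in opposite directions in the 2 passages.

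Of 13 considered brush border hydrolases 12 were higher and none lower (median log2 ratios 2.10 and 2.59), and without Alpi, which is in the rule, 11 of 12. Alpi (chromosome 1, 87098002 to 87101606), the intestinal alkaline phosphatase and part of the rule, stood at 2957 against 806 CPM and at 3723 against 874. The trehalase gene Treh stood at 461 against 88.4 and at 410 against 46.1, and the maltase-glucoamylase gene Mgam at 2237 against 796 and at 1139 against 287. Lct, the lactase, stood at 145 against 23.7 and at 36.6 against 0.854, so few transcripts lay behind its ratio in passage 2. The peptidase gene Dpp4 was the 1 member below the mark, at 92.3 against 54.5 and 86.2 against 25.6.

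Of 15 genes that build the microvillus, 7 were higher and none lower. The protocadherin Cdhr5, which links microvillus tips, stood at 1240 against 363 CPM and at 977 against 207, and the actin bundler Vil1 at 933 against 422 and at 852 against 332. Ezr, which ties actin to the membrane, stood at 348 against 258 and at 345 against 255. Of 22 considered transporters 16 were higher and none lower. Slc5a1, the sodium-glucose transporter, stood at 4841 against 1384 and at 3127 against 455, and it was counted in every enterocyte well of both passages. The fructose transporter Slc2a5 stood at 650 against 142 and at 719 against 60.6, and the basolateral sugar transporter Slc2a2 at 354 against 65.4 and at 272 against 21.4. The iron importer Slc11a2 and exporter Slc40a1 were both higher, at 356 against 84.6 and 165 against 23.7 in passage 1. Slc15a1, the peptide transporter, had too few counts to be considered, 11.5 CPM in enterocyte wells of passage 1.

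Detoxification genes formed the broadest group outside absorption, with 19 of 24 considered members higher and none lower (median log2 ratios 1.58 and 1.99). Cyp3a11 (chromosome 5, 145854426 to 145879964), a cytochrome P450 that oxidizes many drugs, stood at 1256 against 148 CPM and at 1432 against 47.8. Cyp2c29, of another P450 family, stood at 1906 against 336 and at 1136 against 81.1, the alcohol dehydrogenase Adh1 at 5190 against 1689 and at 6116 against 1696. Of 8 retinoid and vitamin genes 6 were higher, with Rbp2, the cellular retinol carrier, at 622 against 220 and 590 against 118. Of 6 class I antigen presentation genes 4 were higher, with H2-K1 at 1295 against 406 and 1246 against 480, and 3 without plates I and II of passage 2. Of 19 fatty acid oxidation and ketogenesis genes 3 were higher and none lower, against 5.9% higher over all considered genes. Their median log2 ratios were 0.40 and 0.73, against −0.22 and −0.20 over all genes. Of 72 oxidative phosphorylation genes 1 was higher and none lower.

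Among 25 considered transcription factors of the absorptive lineage, 3 were higher and none lower. These were Creb3l3, a regulator of apolipoprotein genes, at 686 against 201 CPM and 951 against 127, then Hnf4g at 412 against 174 and 345 against 97.4, and Maf at 45.4 against 13.5 and 39.2 against 8.54. Hnf4a, the close relative of Hnf4g, stood at 344 against 449 and at 308 against 427. The caudal factor Cdx2 stood at 103 against 136 and at 70.5 against 105. Of this pair of related factors Hnf4g was thus higher in enterocyte wells of both passages, while the Hnf4a values were below those of the other wells by less than 2-fold. Creb3l3 also counts in the fat uptake list.

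Genes of secreted proteins were uneven. Guca2b, which encodes uroguanylin, stood at 2761 against 344 CPM and at 2087 against 188, and Spink3, a trypsin inhibitor, at 859 against 112 and at 786 against 45.3. Of 5 considered Reg genes, Reg1 and Reg3a were higher, Reg4 lower, and Reg3b and Reg3g did not have 1 direction of 2-fold. Reg3a stood at 465 against 77.5 and at 415 against 18.8. Reg3g, a bactericidal lectin, stood at 73.1 against 158 and at 209 against 175. Neighbouring Reg3 genes are close copies, so how their reads were split between copies is uncertain.

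Some of the 720 lower genes were in the cell cycle and stem cell lists. Of 23 considered cell cycle genes 22 were lower and none higher, such as the proliferation gene Mki67 at 12.3 against 127 CPM and 15.7 against 124. Pcna, a replication clamp, stood at 199 against 337 and at 225 against 372. Of 12 stem cell genes 11 were lower, among them Lgr5 at 6.93 against 42.9 and 10.5 against 78.6. Clca4, taken with the stem cell genes, had the largest mean difference of all lower genes, at 9.23 against 468 and 18.3 against 412. Of 7 considered goblet genes 4 were lower and none higher, and Tff3 and Agr2 stood at 36.2 against 494 and 7.69 against 128 in passage 1. The median summed goblet share of a well was not lower, at 0.0300% in enterocyte and 0.0117% in other wells of passage 1. In passage 2 it was 0.0612 and 0.0583%. The differences in this paragraph describe the wells left over by the rule as much as the enterocyte wells.

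Ribosomal protein genes were lower as a group. Of 78 considered members 55 were lower (54 without plates I and II of passage 2) and none higher, with median log2 ratios of −1.27 and −1.11, and their summed level was 74052 against 175617 CPM in passage 1 and 86048 against 185001 in passage 2. Immediate early and stress genes split by passage. Fos stood at 269 CPM in enterocyte and 689 in other wells of passage 1, but at 1069 against 961 in passage 2. Of 16 considered members of that list 1 was lower in both passages (Hsph1) and none higher.

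Within the enterocyte wells, the Apoa4 share served to rank cells along a measure known to increase up the villus. It ran from 0.0516 to 4.02% of counts in passage 1 and from 0.0415 to 2.41% in passage 2, and wells of each passage were split by it into 3 sets of 52, 52 and 52 and of 18, 20 and 18 wells. Median Apoa4 shares of the low, middle and high sets were 0.231, 0.479 and 0.990%, and 0.199, 0.502 and 1.12%. Median counts per well were 8284, 5966 and 5492 across the sets of passage 1 and 3419, 3674 and 4348 in passage 2. Spike-in shares were 8.52, 11.2 and 15.1% and 12.7, 11.4 and 14.4%. Depth and RNA content thus moved with Apoa4 in passage 1, and their part in the differences was not tested. Since the split used a measured value, its results are also descriptions.

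Of 1932 genes with at least 100 counts in the wells compared, 17 (0.88%) were at least 2-fold higher in the Apoa4-high than in the Apoa4-low set of both passages and 25 (1.29%) lower. Without plates I and II of passage 2 the counts were 21 and 22, with 36 genes shared with the full set. Apoa1 followed, with 1932, 5175 and 7237 CPM in the low, middle and high sets of passage 1 and 1494, 3295 and 9607 in passage 2. Apoc3 stood at 1165, 2031 and 4014 and at 589, 1503 and 4339. Apoc2 stood at 770, 1295 and 1646 and at 630, 842 and 1727. These lipoprotein genes were ordered low, middle, high in both passages.

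Reg1 was ordered as well, at 11818, 18301 and 20957 CPM and at 9576, 12519 and 17683, by less than 2-fold between the low and high sets. Its correlation with the Apoa4 share was 0.39 and 0.22, positive in all 7 plates. Fabp1, Alpi and Sis were not ordered the same way in both passages. Fabp1 stood at 5862, 6530 and 5311 CPM and at 3884, 4988 and 4412 in the 3 sets, and Alpi at 2784, 3061 and 3086 and at 4312, 3477 and 3410. Sis stood at 3636, 3848 and 3130 in passage 1 and at 2285, 3031 and 3164 in passage 2. Spearman correlations with the Apoa4 share over single wells (156 and 56 wells of 2 passages, sharing library depth) were −0.02 and −0.08 for Fabp1, 0.11 and −0.15 for Alpi, and −0.17 and 0.11 for Sis. Fabp1 and Alpi belong to the sum that chose the wells, which constrains how they can vary with Apoa4. Of the lists known from villus position, 2 of 8 tip genes were higher in the Apoa4-high set, both of them from the ranking cluster (Apoa1 and Apoa4 itself). None of 5 middle and none of 8 bottom genes was higher by 2-fold in both passages, and of the bottom genes Reg3g was lower. By direction alone, 1 bottom gene, Reg1, was higher in both passages and 3 were lower in both. The summed bottom list, which holds Reg1, stood at 17082, 23833 and 25492 CPM in passage 1 and at 13929, 17473 and 22131 in passage 2. Without plates I and II of passage 2 Reg3g had too few counts to be considered.

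Other genes were higher in Apoa4-high wells too. Slc16a3 (chromosome 11, 120948480 to 120960868), which exports lactate, stood at 297, 451 and 718 CPM and at 194, 454 and 617. Egln3, an oxygen-dependent prolyl hydroxylase, stood at 109, 200 and 410 and at 145, 182 and 435, and the mitochondrial protease gene Lonp1 at 84.4, 120 and 233 and at 64.6, 107 and 225. Selenbp1, which oxidizes methanethiol, stood at 169, 228 and 695 and at 412, 685 and 1154. The brush border glutathione hydrolase gene Ggt1 stood at 169, 380 and 608 in passage 1 and, at a lower level, at 40.4, 82.6 and 160 in passage 2. Each of these was lowest in the Apoa4-low and highest in the Apoa4-high set of both passages. AA467197 (also called Nmes1) had the largest difference after Apoa4, with 46.1, 104 and 355 and 137, 107 and 878.

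By correlation over single wells, the 8 genes closest to Apoa4, taking the lower value of the 2 passages and genes counted in at least 25% of enterocyte wells, were Apoc3 (0.67 and 0.66), Apoa1 (0.57 and 0.56), Prap1 (0.52 and 0.50), Slc16a3 (0.47 and 0.49), H2-K1 (0.44 and 0.43), Cyp2d26 (0.42 and 0.40), Bsg (0.37 and 0.39) and Pgk1 (0.37 and 0.41). The closest pair are the neighbours of Apoa4 on chromosome 9. Apoc3 and Slc16a3 were positively correlated with Apoa4 within each of the 7 plates, with plate values of 0.24 to 0.80 and 0.40 to 0.64. Prap1 encodes a secreted proline-rich protein, Bsg a partner of lactate carriers, and Pgk1 a glycolytic enzyme. H2-K1 stood at 1015, 1364 and 1632 CPM and at 832, 1098 and 1749 in the 3 sets, and Prap1 at 7251, 9846 and 11803 and at 5660, 6383 and 11980.

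Among the genes lower in Apoa4-high wells were Dmbt1, Reg3g, Pycard and the glutathione transferases Gstm3 and Gstm1. Dmbt1 (chromosome 7, 131032053 to 131121630), a secreted scavenger receptor that binds bacteria, stood at 526, 239 and 157 CPM in the low, middle and high sets of passage 1 and at 977, 421 and 94.3 in passage 2. Reg3g stood at 111, 57.5 and 34.9 and at 275, 330 and 43.5. The inflammasome adaptor gene Pycard stood at 374, 230 and 151 and at 638, 504 and 123. Gstm3 stood at 3548, 2440 and 1280 and at 1696, 1148 and 675, and Gstm1 at 5106, 4759 and 2487 and at 3359, 3989 and 1255. In addition Gclc, which makes glutathione's precursor and Mgst2, of another transferase family, were lower. Glutathione transferase genes are close copies, so their split is uncertain.

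Ribosomal protein genes showed the most even pattern. All 77 considered members had a lower level in the Apoa4-high than in the Apoa4-low set of both passages, 8 of them by 2-fold or more in both (7 of 76 without plates I and II of passage 2), with median log2 ratios of −0.68 and −1.20. Over all 1932 genes, 664 were lower in both passages and the medians were −0.06 and 0.00. The summed level was 90577, 68035 and 56615 CPM in passage 1, and the median share per well 8.17, 6.93 and 5.72%, against 10.5, 6.36 and 5.18% in passage 2. Over single wells the share correlated with Apoa4 at −0.55 (156 wells) and −0.52 (56 wells), and it was negative within each of the 7 plates, from −0.71 to −0.12. Rpl13 stood at 1435, 957 and 678 CPM and at 1591, 1429 and 493. When wells were ranked by Apoa1 in place of Apoa4, 76 members were lower in both passages. Of 71 oxidative phosphorylation genes 42 were lower in both passages, none by 2-fold in both.

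**Figure D3:**
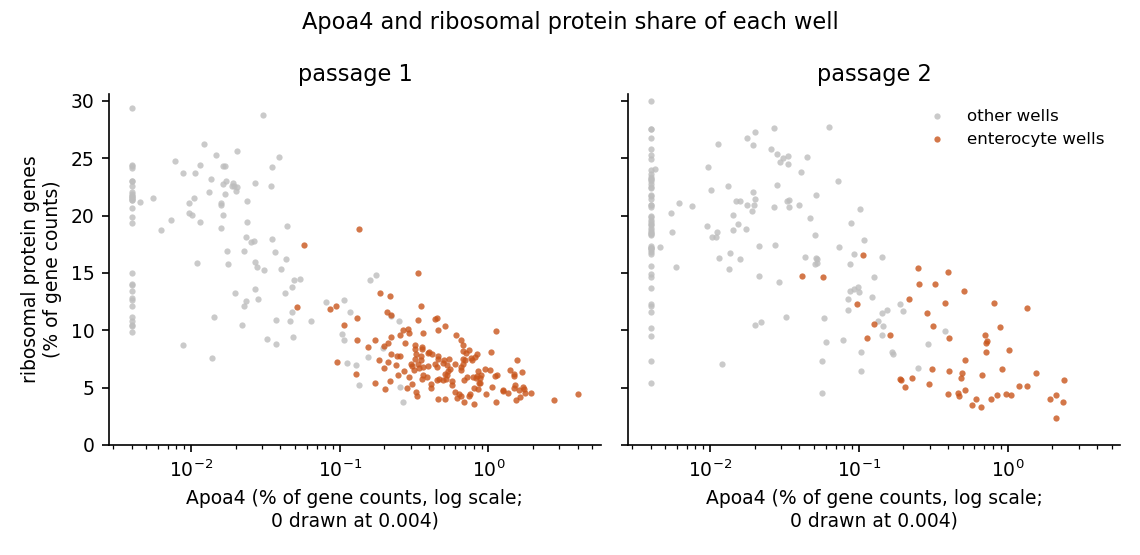
Share of ribosomal protein genes (percent of gene counts) against the Apoa4 share (log scale) of each kept whole organoid well, passage 1 left and passage 2 right, enterocyte wells orange and other wells grey. Within the enterocyte wells the ribosomal share is lower at higher Apoa4 shares in both passages, with correlations of −0.55 and −0.52.

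**Figure D4:**
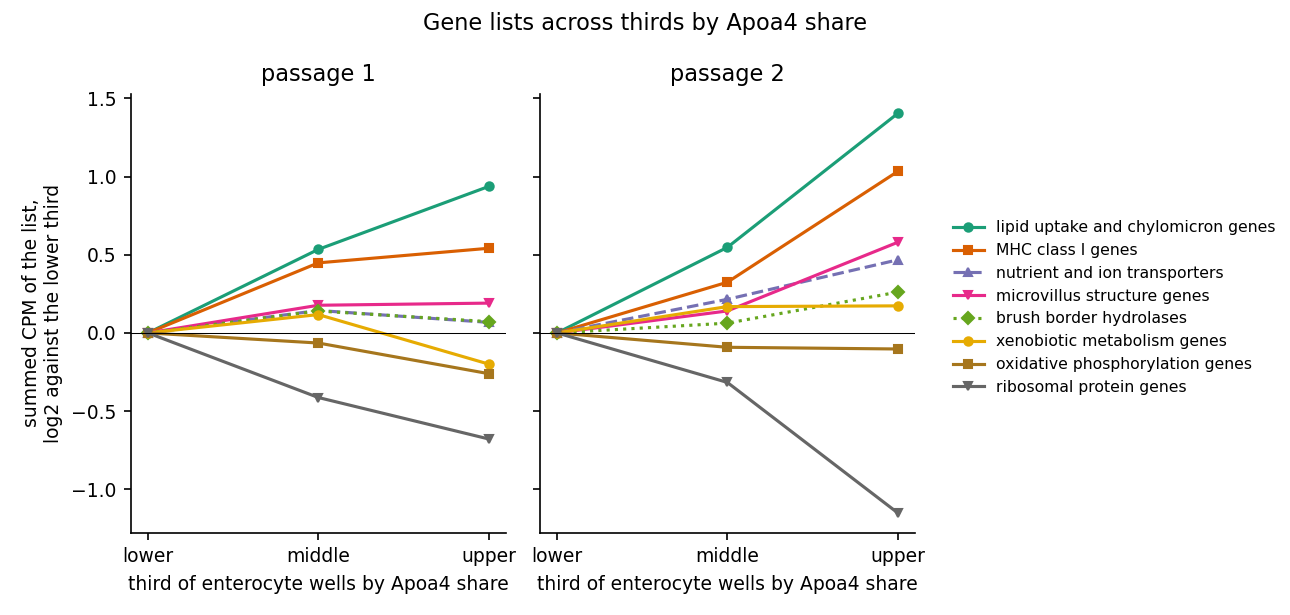
Summed CPM of 8 gene lists in the lower, middle and upper set of enterocyte wells by Apoa4 share, as log2 against the lower set, for passage 1 (left) and passage 2 (right). The fat uptake list, which holds Apoa4 and Apoa1, and the class I list are highest in the upper set of both passages, and the ribosomal list is lowest there.

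YFP-positive enterocyte wells, which took no part in choosing these genes, were split by their own Apoa4 share into 10 upper and 10 lower wells. Of the 16 genes higher in Apoa4-high organoid wells apart from Apoa4, 12 were higher in the upper YFP wells. Of the 25 lower genes, 17 were lower there. Over all considered genes 47.5% were higher in the upper YFP wells, and the share that was lower was not counted. Dmbt1 had 106 counts in the lower and 7 in the upper YFP wells, while Reg3g had 167 and 178 and Gstm3 165 and 218. In these counts, which are not scaled for depth, Reg3g and Gstm3 did not follow the organoid order.

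The promoters of 3 genes are shown because the data bear on them. Alpi, which is part of the rule and so higher by construction, and Cyp3a11 stand for the genes higher in enterocyte wells. A larger share of these genes than of all gene symbols holds the letters CAAAGTCCA, as bound by HNF4 factors. Slc16a3 stands for genes that rose against YFP wells, with the letters ACGTG, the core bound by hypoxia-inducible factors. Sequences run 5' to 3' in the direction of transcription from 250 bases before to 50 bases after the RefSeq start (GRCm38.p6). Capitals mark CAAAGTCCA in Alpi and Cyp3a11 and ACGTG in Slc16a3. Matches to the other letters searched are not marked. They are Alpi chr1:87101557-87101856 (minus strand), Cyp3a11 chr5:145879805-145880104 (minus strand) and Slc16a3 chr11:120948817-120949116 (plus strand).
Alpi: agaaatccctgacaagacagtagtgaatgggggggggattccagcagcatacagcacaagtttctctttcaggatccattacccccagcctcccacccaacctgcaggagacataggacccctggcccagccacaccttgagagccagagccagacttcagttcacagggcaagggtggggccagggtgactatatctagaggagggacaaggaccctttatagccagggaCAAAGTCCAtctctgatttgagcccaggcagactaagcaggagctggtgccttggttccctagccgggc
Cyp3a11: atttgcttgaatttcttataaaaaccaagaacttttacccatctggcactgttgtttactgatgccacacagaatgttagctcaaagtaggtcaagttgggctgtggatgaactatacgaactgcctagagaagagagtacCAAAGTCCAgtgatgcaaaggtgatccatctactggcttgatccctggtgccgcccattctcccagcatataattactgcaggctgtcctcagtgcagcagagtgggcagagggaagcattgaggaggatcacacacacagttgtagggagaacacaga
Slc16a3: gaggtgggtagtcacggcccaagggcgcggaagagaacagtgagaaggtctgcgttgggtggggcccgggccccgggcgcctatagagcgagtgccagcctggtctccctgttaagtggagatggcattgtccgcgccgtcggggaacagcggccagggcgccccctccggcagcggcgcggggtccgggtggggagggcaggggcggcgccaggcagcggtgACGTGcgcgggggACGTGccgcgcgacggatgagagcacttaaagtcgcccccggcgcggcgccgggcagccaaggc
The capitals begin 19 bases before the start in Alpi, 109 before it in Cyp3a11, and 27 and 14 before it in Slc16a3. On either strand CAAAGTCCA was found in 0.475% of all 32851 promoters of this length, and for 0.555% of all symbols. By gene symbol it was found for 9 of 286 matched higher genes (3.15%), 2 of 552 lower genes (0.362%) and 0.65% of the considered genes. The 9 were Alpi, Btnl2, Cyp2c65, Cyp3a11, Nat8, Neu3, Rab11fip3, Sult1b1 and Treh. ACGTG, also on either strand, was found for 21.8% of all symbols, for 30.3% of those tested against YFP wells, for 38 of 87 that rose (43.7%) and for 18 of 63 that fell (28.6%). The motifs do not overlap each other. Also searched were TTTATGG, the letters of CDX factors, and TATAAA, the TATA letters. They were found for 5.25 and 19.2% of matched higher genes, against 2.12 and 9.02% of the considered genes. A match describes letters in this window, not a binding site, and no test was made.

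Whether enterocyte wells of organoids differed from those of intestine was tested on counts summed per passage or plate, 2 organoid passages against 4 YFP plates (the fifth plate, replicate 4, had no enterocyte well among 35). These sums held 1299715 and 382762 counts in organoids and 47005, 28486, 52733 and 12503 in YFP plates. By edgeR's quasi-likelihood test, 113 of 1182 genes (9.56%) rose and 93 (7.87%) fell in organoids at a false discovery rate of 0.05. Without plates I and II of passage 2 the counts were 107 and 90, and 99 of the 206 genes were called in every fit that left out 1 library. DESeq2 called 280 genes, and 44.6% of them rose, against 54.9% for edgeR, and 167 genes were called by both in the same direction. Levels in this comparison are CPM scaled by TMM over the tested genes. The 5 genes of the rule are given without a test, since the rule fixes their sum. Alpi stood at 4670 and 5938 in organoids and at 412 to 2968 in YFP plates, and Fabp2 at 3963 and 3500 against 9485 to 19881. The groups did not overlap for either gene.

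The largest rises included the metallothionein genes Mt1 and Mt2 and the genes Ndrg1 and Slc16a3. Mt2 (chromosome 8, 94172664 to 94173568), which binds zinc and other metals, stood at 9178 and 9984 CPM in organoid passages 1 and 2 and at 28.8, 430, 56.0 and 0 in YFP plates 1, 2, 3 and 5. Its neighbour Mt1 stood at 12786 and 14338 against 345, 811, 252 and 309. Neither gene's groups overlapped. Mt1 rose by 5.01 on the log2 scale (SE 0.39, edgeR adjusted p = 6.11e-06) and Mt2 by 6.28 (SE 0.59, edgeR adjusted p = 2.43e-05).

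Ndrg1 (chromosome 15, 66929318 to 66969640), a stress-responsive differentiation gene, stood at 3452 and 2800 CPM against 86.3, 239, 84.0 and 206, a rise of 4.56 (SE 0.39, edgeR adjusted p = 1.17e-05). Slc16a3 stood at 727 and 683 against 0, 0, 84.0 and 0, with 762 counts in organoids and 3 in YFP wells. All organoid values of both genes lay above all YFP values. Egln3 and Pgk1 rose by 2.68 and 2.07 on the log2 scale (edgeR adjusted p = 0.0022 and 0.000405), and Prap1 by 1.68 (edgeR adjusted p = 0.00131). Slc16a3, Egln3, Pgk1 and Prap1 are also among the genes that followed Apoa4 within organoid wells. Apoa4 is part of the rule and was not tested between sources. It stood at 8929 and 12088 against 928 to 10641, so that the passage 2 value lay above all YFP values. The part of Apoa4 rank in these rises was not tested. Reg1 stood at 25909 and 21413 against 619 to 6905 and rose by 2.57 (SE 0.52, edgeR adjusted p = 0.0043).

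**Figure D5:**
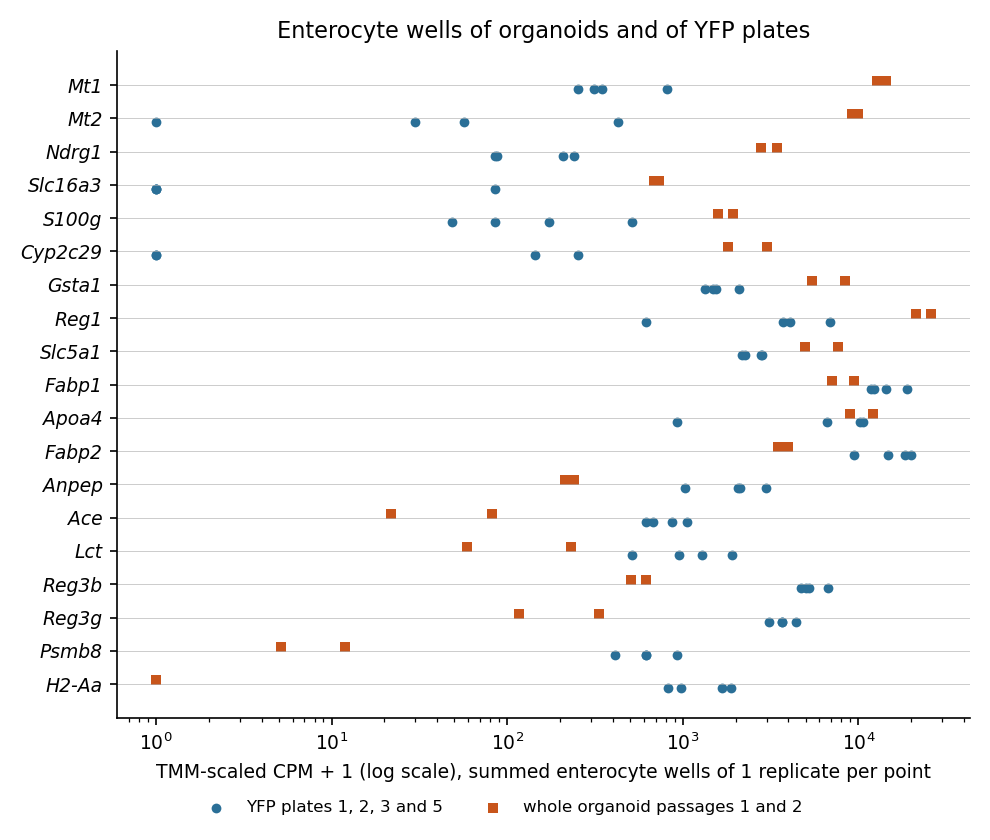
TMM-scaled CPM + 1 (log scale) of 19 genes in summed enterocyte wells, orange squares for whole organoid passages 1 and 2 and blue circles for YFP plates 1, 2, 3 and 5. Mt1, Mt2, Ndrg1 and Slc16a3 lie higher in both organoid passages than in any YFP plate, Anpep, Ace, Reg3b, Reg3g, Psmb8 and H2-Aa lie lower, and Apoa4 overlaps.

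Of 25 tested detoxification genes 11 rose and 3 fell. Cyp2c29 stood at 3010 and 1813 CPM against 0, 143, 252 and 0 and rose by 4.36 (SE 0.59, edgeR adjusted p = 0.000332). Ephx1, the microsomal epoxide hydrolase, rose from 65.7 ± 52.2 (SD, n = 4) to 1165 ± 14.8 (SD, n = 2; log2 4.28, edgeR adjusted p = 0.000163), while Ephx2, the soluble one, fell from 907 ± 377 to 18.3 ± 3.56 (log2 −5.71, edgeR adjusted p = 6.11e-06). Gsta1 rose by 2.09 and Adh1 by 1.83 on the log2 scale. The count of rises was 7 by DESeq2, with wells thinned to 1500 counts, and without YFP replicate 1, YFP replicate 3 or organoid replicate 1. The fall count was 1 without YFP replicate 2 and 0 of 15 tested with thinned wells. Without plates I and II of passage 2, 9 rose and 4 fell.

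Brush border hydrolases fell or were not called, with 6 of 12 falling and none rising (median log2 −1.45, against −0.06 over all tested genes). Anpep (chromosome 7, 79821803 to 79861059), aminopeptidase N, stood at 238 and 213 CPM in organoids and at 2963, 2052, 2128 and 1031 in YFP plates (log2 −3.23, SE 0.38, edgeR adjusted p = 0.000152). Ace, the angiotensin-converting enzyme, stood at 81.4 and 20.8 against 863, 1050, 672 and 619, and Lct at 229 and 58.3 against 950, 1909, 1288 and 516. The groups of these 3 genes did not overlap. Dpp4, Mep1b and Enpep fell by 1.76, 1.67 and 1.56 on the log2 scale. Mgam and Treh were not called, with log2 differences of 0.43 and −0.02, and Sis stood at 5643 and 4525 against 1443 to 4104 (log2 0.97, SE 0.34, edgeR adjusted p = 0.0747). Without plates I and II of passage 2 Sis passed the test (log2 1.11, edgeR adjusted p = 0.0463). With thinned wells 6 hydrolases were tested and 3 fell. In microvillus genes 2 of 10 fell, Krt20 and Myo7b.

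Transporters changed in both directions, with 4 of 18 rising and 4 falling. S100g, which carries calcium through the cell, stood at 1592 and 1925 CPM against 173, 47.7, 84.0 and 516 and rose by 3.51 (SE 0.47, edgeR adjusted p = 0.000332). Slc11a2, Slc2a5 and Slc5a1 rose by 2.67, 1.81 and 1.32 on the log2 scale. Slc15a1, which takes up peptides, stood at 18.2 and 20.8 against 288, 430, 252 and 103 and fell by 3.85 (SE 0.67, edgeR adjusted p = 0.00183), and Slc7a7, Slc51a and Slc51b fell too. The count of falls was 2 without YFP replicate 1, YFP replicate 2 or organoid replicate 1. With thinned wells 6 were tested, of which 2 rose and none fell. Members of this list and of the brush border list were named after their values were seen.

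Antigen presentation by class II molecules was at or near 0 in organoid enterocyte wells. H2-Aa (chromosome 17, 34282744 to 34287823), H2-Ab1, H2-Eb1 and Cd74 had 0 counts in both organoid passages and 144, 117, 99 and 102 counts in YFP wells. H2-Aa stood at 978, 1670, 1876 and 825 CPM in the 4 YFP plates. Taking 3 counts over the organoid wells as the limit of a count of 0, levels in organoids were at least 574-fold lower for H2-Aa, 466-fold for H2-Ab1, 395-fold for H2-Eb1 and 407-fold for Cd74. With H2-DMa, all 5 tested class II genes fell, as did all 3 that could be tested with thinned wells. The summed level of 10 immune markers was 85.3 CPM in YFP enterocyte wells (0 to 190 by plate) and 0 in organoids, against 3581 CPM for the class II list in YFP wells. The part of immune RNA in this result was not tested. In class I, Psmb8, a proteasome subunit for peptide generation, stood at 10.9 and 4.17 CPM against 921, 620, 616 and 412 (log2 −6.13, SE 0.46, edgeR adjusted p = 6.11e-06), and H2-K1 at 2045 and 1988 against 1546 to 2338. H2-D1 also fell (log2 −1.01, edgeR adjusted p = 0.0472), so 2 of 6 class I genes were called. Over the alternatives 1 to 3 were called, and the count was 1 without plates I and II of passage 2, without YFP replicate 1, 2 or 3, without organoid replicate 1, with thinned wells, with a higher minimum of counts a well, at a 2% marker share and without the 5 genes of the rule.

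The bactericidal lectins of the Reg3 group fell. Reg3b stood at 614 and 508 CPM against 5035, 6680, 5208 and 4742 (log2 −3.27, SE 0.32, edgeR adjusted p = 3.68e-05) and Reg3g at 115 and 333 against 3654, 3674, 4424 and 3093 (log2 −4.12, SE 0.46, edgeR adjusted p = 9.16e-05). Reg3a overlapped between sources, at 734 and 663 against 700 to 2720. Carbonic anhydrase gene Car4 had 0 organoid and 35 YFP counts, at least 140-fold lower. Paneth and goblet markers fell as well, 4 of 5 and 3 of 4 tested genes, such as AY761184 at 2.43 and 8.33 against 604 to 1909. Summed Paneth levels were 52.3 and 491 CPM in the organoid wells against 1489 to 4388 by YFP plate, and goblet levels 551 and 865 against 1474 to 8638. Levels of these markers in enterocyte wells thus differed between the sources. Where these transcripts came from, and their part in other falls, was not tested.

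No member of the fat uptake (15 tested), fatty acid oxidation (14), transcription factor (7) or ribosomal (75) list was called in either direction. Without plates I and II of passage 2 the fatty acid transporter gene Slc27a4 fell (log2 −1.25, edgeR adjusted p = 0.0394). Apob stood at 1013 and 542 CPM against 777 to 1148, and Mttp at 2096 and 2321 against 2215 to 2720. Apoc3 stood at 3488 and 3554 against 206 to 2529 (log2 1.20, SE 0.44, edgeR adjusted p = 0.0851), with organoid values above all YFP values. Over these 2 against 4 libraries a missed threshold does not show that levels were alike.

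Whether a difference between sources was particular to enterocyte wells was asked by setting it against the same difference in the other wells, with the replicate as a block. CPM levels here were scaled by TMM in the fit of both kinds of well, so they differ from those of the fit of enterocyte wells alone. The other wells were not matched for cell type between sources. In them the defensin gene Gm14851 stood at 2.89 CPM in organoids and 7770 in YFP plates. The part of such differences among other wells in the interaction was not tested. Of 8992 genes, 183 (2.04%) passed edgeR's quasi-likelihood test of this interaction, 94 upwards and 89 downwards. The count was 175 without plates I and II of passage 2. Over all tested genes the median interaction was 0.41 on the log2 scale, so the typical gene lay above 0. With no replicate block 21 passed. Without organoid replicate 1 or 2 there were 29 and 46, and without YFP replicate 1 there were 110. Of the 206 genes called between sources, 50 (24.3%) were also called in the same direction here, which is 27.3% of the 183, and 7 in the opposite direction. Reg3g had an interaction of −3.22 on the log2 scale (SE 0.34, edgeR adjusted p = 8.01e-18), and in other wells it stood at 168 ± 10.9 CPM in organoids (SD, n = 2) and at 290 ± 90.7 in YFP plates (SD, n = 4). Anpep and Ace were called downwards (log2 −2.09 and −2.29, edgeR adjusted p = 2.83e-07 and 0.00399). Mt1 was called upwards (1.92, SE 0.40, edgeR adjusted p = 0.000498), with other wells at 3078 ± 593 and 285 ± 36.3, so that Mt1 differed between sources in both kinds of well. Slc16a3 (−0.17, edgeR adjusted p = 0.943) and H2-Aa (−4.13, edgeR adjusted p = 0.465) were not called, so their difference was not shown to be particular to enterocyte wells.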

How the data were processed

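Per the labels, single mouse intestinal cells were sorted into 96-well plates and counted by CEL-seq. The deposited values are estimated counts, which the authors derived from distinct 4-base molecular barcodes (256 possible). All but 26 of 3897321 nonzero values became whole barcode numbers when that correction was inverted. The 26 were saturated at 1597.01 counts, so very abundant genes are imprecise. The submitters' processing notes name BWA 0.6.2-r126 and the build mm10 (GRCm38). Nothing further on counting or annotation was used. The deposited tables hold 23538 gene rows and 92 spike-ins. Spike-ins and the dsRed row were left out. Another 2 tables of 96 wells matched no library entry and were not used.

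Estimated counts were rounded to whole numbers (no value moved by more than 0.495), wells with fewer than 1500 gene counts were left out, and wells were summed per replicate. Plates share the same 96 well barcodes, and none of the 820 kept whole organoid and YFP wells was identical to another. Per the labels, wells 49 to 96 of a sample numbered 4 are to be discarded. This was read as YFP plate 4, with plate IV of passage 2 as an alternative. For the tests of sums edgeR 4.0.16 was used (quasi-likelihood test after TMM scaling and filterByExpr, at a false discovery rate of 0.05 by Benjamini-Hochberg) under R 4.3.3, with DESeq2 1.42.0 as an alternative. Standard errors were taken from the F statistic, as the size of the log2 difference over its square root. Enterocyte against other wells, and sets by Apoa4 share, were described with a pseudocount of 10 CPM and no test, since the wells were chosen by these measures. The binomial intervals, and the limit of 3 counts used where a gene had none, describe counting error alone.

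The members, gene lists and tests were chosen with earlier results of these data known. Named genes were the 7 markers, up to 10 rises and 10 falls per comparison with the largest change and at least 50 CPM, the highest-level members of a list, 6 at most, and the 8 genes most correlated with Apoa4. Other list members were named after their values were seen. Positions came from GENCODE M21 and promoters from RefSeq (GRCm38.p6). Scripts for the tests were tested on simulated counts. Glutathione transferase, Cyp3a, Reg3, defensin, class I and ribosomal genes have close copies, so their counts are uncertain. Alternatives were other filters, thinning, thresholds, left-out libraries and DESeq2. Some genes are not reported here.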

Additional observations from a re-analysis of the deposited data

Results flagged for a closer look

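In each of 3 genes 1 of the 4 YFP plates lay far from the rest for its summed enterocyte wells. In YFP plate 2 Mt1 stood at 811 CPM and Mt2 at 430 CPM, and in YFP plate 3 Slc16a3 stood at 84.0 CPM, all below both organoid passages. The Slc16a3 level rests on 3 counts, and the other YFP plates had none. The gap passed Dixon's 95% limit, which chance alone passes in about 1 in 20 groups. All markers and named rises and falls against YFP wells were screened.

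Of 186 genes named by the rule, 35 had a difference between organoid and YFP wells that itself differed between enterocyte and other wells. Of these 35, 5 also did so with no replicate block. Over all 8992 genes 183 (2.04%) were called with the block, and the median difference was 0.41 on the log2 scale. Named genes were picked partly for large differences in these same data, so their count is not a result about them. CPM levels in this paragraph were scaled by TMM in the fit of both kinds of well, unlike those in the paragraph before. Interaction values below are the organoid against YFP difference in enterocyte wells less that in other wells (log2 scale, edgeR's quasi-likelihood test). They were positive for the epoxide hydrolase gene Ephx1 (2.42), Mt1 (1.92), Ndrg1 (2.03), the defensin gene Gm14851 (5.06) and the gene model Gm17821 (1.67). Gm14851 stood at 2.41 CPM in organoid and 356 in YFP enterocyte wells but at 7770 in other YFP wells. The values were negative for Creb3l3 (−2.04), Gsta1 (−2.73), Gstm3 (−2.46), Reg3g (−3.22), Sis (−1.28) and the mRNA decay gene Zfp36 (−2.39). A negative value need not mean a lower level in organoid enterocyte wells. Gsta1 stood at 5410 CPM in organoid and 1020 in YFP enterocyte wells, and at 839 and 24.5 in other wells. Sis stood at 3950 and 1633, and at 716 and 104 in other wells. Gstm3, Reg3g and Zfp36 had lower means in organoid than in YFP enterocyte wells. Creb3l3 stood at 1003 ± 201 in organoid (SD, n = 2) and 585 ± 103 in YFP enterocyte wells (SD, n = 4), while in other wells it stood at 166 ± 53.8 and 24.2 ± 7.36. Of these 11 genes Creb3l3, Gsta1, Gstm3, Reg3g and Zfp36 were the ones called with no block too.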

How the results depend on the processing

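The number of genes called between organoid and YFP enterocyte wells moved from 206 to 533 with no filter on low counts and to 69 with wells thinned to 1500 counts, where 293 genes could be tested, and it was 153 to 226 when 1 library was left out. The replicate block gave 235 (116 up and 119 down), a block on numbers that do not pair the samples, whose same-numbered deviations correlated at 0.03 and −0.07. Falling transporters numbered 7 under it. The interaction moved to 72 with thinned wells and to 21 with no replicate block, and ran from 29 to 173 with 1 library left out. With 1 library left out Clca4 ran from −2.55 to 0.30, reversed without YFP replicate 3, and Zg16 from −2.27 to 1.28, reversed without organoid replicate 2. The cause was not tested.

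The enterocyte share of kept wells depended on the threshold by construction. At 0.5% it was 53.6% in all (65.9% in passage 1, 37.3% in passage 2) and at 2% it was 22.1% (28.6 and 13.4%). Without Apoa4 in the rule it was 35.1% (46.7 and 19.6%), without Fabp1 32.6% (42.0 and 20.1%), and with 1 passage left out 26.8 to 56.5%. Genes at least 2-fold apart in enterocyte wells numbered 1018 to 1404 over the other settings, and 1436 to 1632 when 1 passage alone set the rule. Between Apoa4 sets the 42 genes became 16 with 2 sets in place of 3, 66 with thinned wells and 23 from means of per-well shares, and 88 to 283 when 1 passage alone set the rule. The ribosomal median of −0.95 (mean of both passages) stayed between −0.68 and −1.18 in all settings run. The YFP sums, of 12503 to 52733 counts from 3 to 9 wells, limit what could be called.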
